A study of Arabidopsis thaliana with 11 samples.

Results

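The comparison described here sets inflorescences of the nga quadruple mutant against inflorescences labelled wild type in Arabidopsis thaliana. Its members were taken by array title and genotype label, which gave 9 of the 11 arrays of the series: 2 of the mutant and 7 labelled wild type. The mutant carries the alleles nga1-1, nga2-1, nga3-1 and nga4-1. Both groups are of ecotype Ler, have an age labelled 30 DAS and hold flowers of stage 12 and younger. The other 2 arrays, from plants with a 35S-driven artificial microRNA against the same genes (amiR-NGA), entered only the estimate of the spread and a few values given side by side. The labels note long days for wild-type replicates 2, 3 and 4 and no day length for any other array. Mutant replicate 1 lacks the separate ecotype and age tags that the other arrays carry, although its free-text description gives both. Whether replicates are separate plantings is not said in the labels, and the p-values thus reflect just the spread among these samples, which may be technical. In which accession each nga allele arose is not stated in the sources used.

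NGATHA proteins are transcription factors with a plant-specific B3 DNA-binding domain. The 4 genes act redundantly at the tip of the developing gynoecium, where they are needed for the style and stigma, and they also limit growth at the margins of lateral organs. They are known to act there together with style regulators of the SHI/STYLISH family and to promote auxin synthesis genes.

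All values are log2 expression values from Affymetrix ATH1 arrays, which the authors made with GC-RMA. This method draws dim probe sets towards a floor, so fold changes of dim transcripts are compressed. Differences are given as mutant minus wild type on the log2 scale with the standard error (SE) of a limma fit, and a call means a Benjamini-Hochberg adjusted p below 0.05 over 17910 kept probe sets. Array medians lay between 6.08 and 6.27. The probe sets for the 3′ and 5′ ends of actin differed by 2.11 on mutant replicate 1 and 1.19 on mutant replicate 2. Among the arrays labelled wild type this difference was 2.05 on replicate 1, 2.1 on replicate 2 and 1.14 to 1.31 on replicates 3 to 7, so each group held arrays of both kinds. The Pearson correlation over kept probe sets was 0.971 between the 2 mutant arrays, 0.954 on average between mutant and wild-type arrays and 0.975 on average among the arrays labelled wild type.

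Transcripts of 3 of the 4 mutated genes were called lower in the mutant, as were 2.23% of all kept probe sets. NGA4 had a log2 value of 4.51 and 4.45 on the 2 mutant arrays, against a lowest value of 5.89, a median of 6.07 and a highest of 6.54 on the arrays labelled wild type. It was 3.14-fold lower in the mutant (log2 fold change -1.65, SE 0.16, adjusted p = 0.00038). NGA3 had 4.06 and 4.1 on the mutant arrays, against 5.21 to 5.84 with a median of 5.68 on the arrays labelled wild type. Its fall was 2.88-fold (log2 fold change -1.53, SE 0.17, adjusted p = 0.000885). For both genes the 2 mutant arrays lay close together and the groups did not overlap, and both calls held in all 25 alternative fits. NGA2 had 4.68 and 4.77 on the mutant arrays, against 5.19 to 5.52 with a median of 5.33 on the arrays labelled wild type. Its fall was smaller, 1.53-fold, again without overlap (log2 fold change -0.62, SE 0.12, adjusted p = 0.0201), and the call was lost without mutant replicate 1 (adjusted p = 0.319) and without the arrays labelled wild type 5, 6 and 7 (adjusted p = 0.0623). These values describe the transcript under each probe set and do not measure protein.

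NGA1 did not follow its labels. Its log2 value was 6.95 and 6.50 on the mutant arrays and 5.02 and 4.88 on the amiR-NGA arrays. It was 5.65, 5.6, 5.99 and 5.85 on arrays labelled wild type 1 to 4, and 10.50, 11.003 and 10.51 on arrays labelled wild type 5, 6 and 7. The mutant arrays therefore lay between these clusters, above the 4 dim arrays and far below the 3 bright ones. The fit gave a log2 fold change of -1.15 with an SE of 1.5 and an adjusted p of 0.733, and no direction can be drawn from it: without arrays 5, 6 and 7 the log2 fold change was 0.95 (adjusted p = 0.0385). The labels give no reason to set these 3 arrays apart, so the control group is called the arrays labelled wild type. Leaving the 3 arrays out is an alternative chosen after seeing the data, and calls that end with it are named below.

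**Figure D1:**
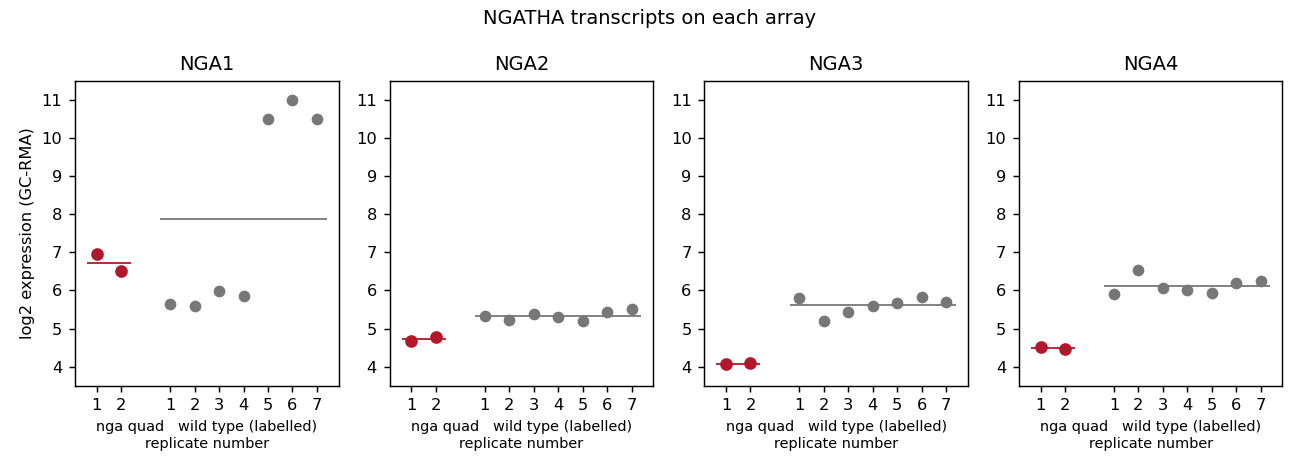
Log2 GC-RMA expression of the 4 NGATHA genes on each array, with the 2 nga quad arrays (red) left of the 7 arrays labelled wild type (grey) in each panel. Points are single arrays and horizontal lines are group means. NGA2, NGA3 and NGA4 lie lower on both mutant arrays than on all 7 others, and NGA1 is at 10.50 to 11.003 on wild-type replicates 5 to 7 and below 7 on all others.

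Genes next to the mutated loci were examined separately. Within 5 protein-coding places on each side, in the order of the RefSeq gene table (assembly TAIR10.1), 11 genes had a kept probe set, of which 4 were lower and 0 higher. Over all kept probe sets 2.23% were called lower. Of the 4, 2 lie by NGA2 and 2 by NGA4, while none of the 2 measured neighbours of NGA1 and not the 1 measured neighbour of NGA3 was called.

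AT3G61960, 2 places before NGA2 on chromosome 3, showed the largest fall among all genes named here. Its log2 value was 3.70 and 3.34 on the mutant arrays, against 7.25 to 8.09 with a median of 7.47 on the arrays labelled wild type, a 16.5-fold difference (log2 difference -4.04, SE 0.20, adjusted p = 7.92e-07). Both mutant arrays were near the floor of the scale and all 7 others were well above it. AT3G61950, the next locus before it, had 3.67 and 3.2 on the mutant arrays, against 5.11 to 5.62 on the arrays labelled wild type (log2 fold change -1.94, SE 0.16, adjusted p = 0.000114). The amiR-NGA arrays, whose NGA2 locus carries no such allele in the labels, had 7.62 and 7.52 for AT3G61960 and 5.45 and 5.32 for AT3G61950, inside the range of the arrays labelled wild type in both cases.

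ARV2, the gene 1 place after NGA4 on chromosome 4 and a homologue of the yeast lipid homeostasis protein ARV1, was 3.95-fold lower. It had log2 values of 3.34 and 3.3 on the mutant arrays, against 4.89 to 5.65 with a median of 5.40 on the arrays labelled wild type (log2 fold change -1.98, SE 0.20, adjusted p = 0.000429). Its amiR-NGA values were 5.62 and 5.48, again inside the wild-type range. AT4G01460, 3 places before NGA4 and named after its values were seen, had 5.14 and 5.51 on the mutant arrays, against 6.73 to 7.58 on the arrays labelled wild type (log2 fold change -1.70, SE 0.25, adjusted p = 0.00505). Here the amiR-NGA arrays, at 5.25 and 5.26, lay with the mutant arrays and below every array labelled wild type.

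Across all kept probe sets, 747 were called (4.17%). In the mutant 348 were higher (1.94%) and 399 lower (2.23%), and 226 of the higher (1.26% of those kept) and 152 of the lower ones (0.849%) differed at least 2-fold. The median log2 fold change over all kept probe sets was -0.04. Whether called or not, 18.8% of all kept probe sets had both mutant arrays beyond all 7 arrays labelled wild type, 8.17% above and 10.7% below, which is the background for each gene whose groups are said not to overlap.

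The 2 mutant arrays differed in how far they moved. Among the higher probe sets the median deviation from the wild-type mean was 1.33 on replicate 1 and 0.97 on replicate 2, and replicate 1 was the farther one in 263 of 348. Among the lower ones the medians were -1.0 and -0.76, and replicate 1 was farther in 299 of 399. Over all kept probe sets the standard deviation of these deviations was 0.609 on replicate 1 and 0.396 on replicate 2. Replicate 1 set against wild-type replicates 1 and 2, the arrays that share its high actin difference, gave a median of 1.43 for the higher and -1.06 for the lower probe sets. Replicate 2 set against wild-type replicates 3 to 7 gave 0.95 and -0.73. The called probe sets were chosen on these same arrays, so their direction is no further evidence. The number of calls was far smaller without replicate 1 than without replicate 2. Each of these fits sets 1 mutant array against wild-type arrays of both actin classes, and what lowers the number was not tested. The number of calls also moved by over 1.5 times without wild-type replicate 3 (343 calls), without wild-type replicate 4 (427) and without the 3 arrays of high NGA1 (443).

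**Figure D2:**
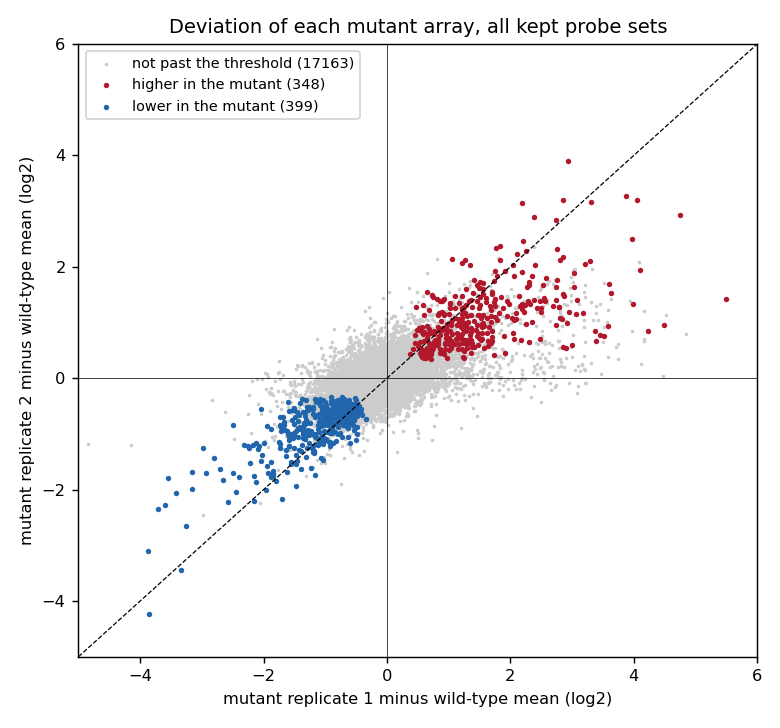
Deviation of mutant replicate 1 (x axis) and of mutant replicate 2 (y axis) from the mean of the 7 arrays labelled wild type, in log2 units, for 17910 kept probe sets. Red points (348) are higher and blue points (399) lower in the mutant at an adjusted p below 0.05, grey points did not pass, and the dashed line marks equal deviation. The called points lie mostly on the x-axis side of the line, with a replicate 1 median of 1.33 and a replicate 2 median of 0.97 for the higher ones.

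A small set of probe sets was called both without mutant replicate 1 and without mutant replicate 2. It held 36 probe sets (0.201% of those kept), 25 higher (0.14%) and 11 lower (0.0614%), and 23 of them represented 1 gene. In this set replicate 1 was the farther array in 15 of 36. That share is bound by the choice itself, since each member had to pass on replicate 2 alone. Of the 51 called genes that the naming rule chose, 18 passed without mutant replicate 1, 41 without replicate 2 and 36 without the 3 arrays of high NGA1. Fewer also passed with the replicate number as a block (22), when wild type was limited to the long-days arrays (27) or to the others (25), when that note entered the model (27), when arrays with a high actin difference were dropped (24) and with array weights (37). With no filter 44 passed, and with median centring or the fit of 9 arrays 45 each. The 18 that passed without mutant replicate 1 also passed in every other alternative in which they were tested, and apart from NGA3, NGA4, AT3G61960, AT3G61950 and ARV2 they are described in the next paragraphs.

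LCR66, a small cysteine-rich protein of the plant defensin-like family, separated the groups clearly. It had 10.76 and 10.88 on the mutant arrays, against 8.38 to 8.82 with a median of 8.68 on the arrays labelled wild type, a 4.51-fold rise (log2 fold change 2.17, SE 0.14, adjusted p = 6.01e-06). Both mutant arrays were about equal and far above all others, and the amiR-NGA arrays, at 8.70 and 8.68, stayed inside the wild-type range. ECS1, a small cell-wall-associated protein, had 9.23 and 10.19 on the mutant arrays, against 5.31 to 7.20 with a median of 6.20 on the arrays labelled wild type. Its rise was 10.7-fold (log2 fold change 3.41, SE 0.45, adjusted p = 0.00275), and replicate 2 was the higher mutant array.

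2A6, a member of the family of 2-oxoglutarate- and iron-dependent oxygenases, rose 5.05-fold (log2 fold change 2.34, SE 0.18, adjusted p = 4.83e-05). It had 7.58 and 7.84 on the mutant arrays, against 5.07 to 5.78 on the arrays labelled wild type. A dimmer probe set of the same gene had the same direction but did not pass, with a log2 fold change of 0.50 and an adjusted p of 0.106. QQS, an Arabidopsis-specific gene known to affect starch content, had 6.07 and 6.11 on the mutant arrays, against 3.45 to 4.23 on the arrays labelled wild type (log2 fold change 2.27, SE 0.20, adjusted p = 0.000126). PAP20, a purple acid phosphatase, had 7.29 and 6.15 on the mutant arrays, against 3.89 to 4.61 on the arrays labelled wild type (log2 fold change 2.46, SE 0.29, adjusted p = 0.00141). RSU1 had 5.80 and 5.84, against 3.80 to 4.15 (log2 fold change 1.81, SE 0.13, adjusted p = 3.82e-05). QQS, PAP20 and RSU1 stood near the floor in the wild-type group, where the compression of GC-RMA bears on the size of a fold change.

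Genes known by locus alone made up the rest of this stable set. AT5G17540 had 7.09 and 7.44 on the mutant arrays, against 4.13 to 4.43 on the arrays labelled wild type, an 8.14-fold rise (log2 fold change 3.02, SE 0.13, adjusted p = 4.17e-07). Its amiR-NGA values, 6.49 and 6.52, were also above every array labelled wild type. AT1G54020 had 7.74 and 7.13 on the mutant arrays, against 3.51 to 4.22 on the arrays labelled wild type (log2 fold change 3.57, adjusted p = 2.3e-06). AT1G06640 (log2 fold change 3.24), AT1G22010 (2.67) and AT4G18280 (1.84) rose without overlap of the groups, with adjusted p of 0.000425, 0.000243 and 0.000801. On the lower side AT3G28270 had 3.77 and 4.55 on the mutant arrays, against 6.74 to 8.16 on the arrays labelled wild type, an 11.2-fold fall (log2 difference -3.49, SE 0.31, adjusted p = 0.000186). Its amiR-NGA values were 4.21 and 3.80, below every array labelled wild type. AT1G10110 had 5.07 and 5.17 on the mutant arrays, against 6.87 to 7.0 on the arrays labelled wild type (log2 fold change -1.80, SE 0.11, adjusted p = 3.71e-06). Its 7 wild-type values lay very close together, and its amiR-NGA values of 6.82 and 6.75 were just below them.

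Among 1352 kept probe sets of 1 gene with a symbol, 29 rose and 10 fell. The rule was a called change of at least 2-fold with both mutant arrays beyond all arrays labelled wild type. Of all kept probe sets 1.26% were called at least 2-fold higher and 0.849% lower. The rises beyond the stable set included a protease, a calcium-binding protein, tetraspanins, a motor protein and transporters. SBT4.13, a subtilisin-like protease, had the largest log2 fold change of them, 3.46 (SE 0.79, adjusted p = 0.0338), with 10.55 on mutant replicate 1 and 6.47 on replicate 2, against 4.31 to 6.01 on the arrays labelled wild type. The mutant arrays differed from each other here by more than replicate 2 differed from the wild-type mean. PC1, which RefSeq gives as a pollen calcium-binding protein, had 8.64 and 7.17, against 3.80 to 5.89 (log2 fold change 3.23, SE 0.69, adjusted p = 0.0279). TET15 and TET11, membrane proteins of the tetraspanin family, rose by a log2 difference of 2.47 (adjusted p = 0.0336) and 1.68 (adjusted p = 0.0158). TET11 was the higher on mutant replicate 2, with 8.49 and 9.18 against 6.52 to 7.50. XIE, a class XI myosin motor, had 7.50 on both mutant arrays, against 4.54 to 6.33 (log2 fold change 1.91, SE 0.44, adjusted p = 0.0342).

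OCT1, a membrane carrier of the organic cation and carnitine transporter family, had 9.80 and 9.17 on the mutant arrays, against 6.74 to 8.18 on the arrays labelled wild type (log2 fold change 1.95, SE 0.39, adjusted p = 0.0211). TMT3, a tonoplast monosaccharide transporter, had 8.55 and 7.57, against 5.58 to 6.67 (log2 fold change 1.90, SE 0.37, adjusted p = 0.0194). In both the groups did not overlap and replicate 1 was the higher mutant array. All 7 of these rises lost their call without mutant replicate 1, with adjusted p between 0.0968 for TET11 and 0.516 for SBT4.13. TET15, TET11 and XIE also lost it without replicate 2 (0.06, 0.0872 and 0.0978). Without wild-type replicate 3 the call ended for SBT4.13 (0.0664), PC1 (0.0554), TET15 (0.0662) and XIE (0.0674). Without wild-type replicate 4 it ended for SBT4.13 (0.057) and TET15 (0.0517), and for TET15 also without replicates 6 or 7 (0.0502 at the lowest). Without the 3 arrays of high NGA1, SBT4.13 (0.0689), TET15 (0.0581) and XIE (0.0617) did not pass.

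**Figure D3:**
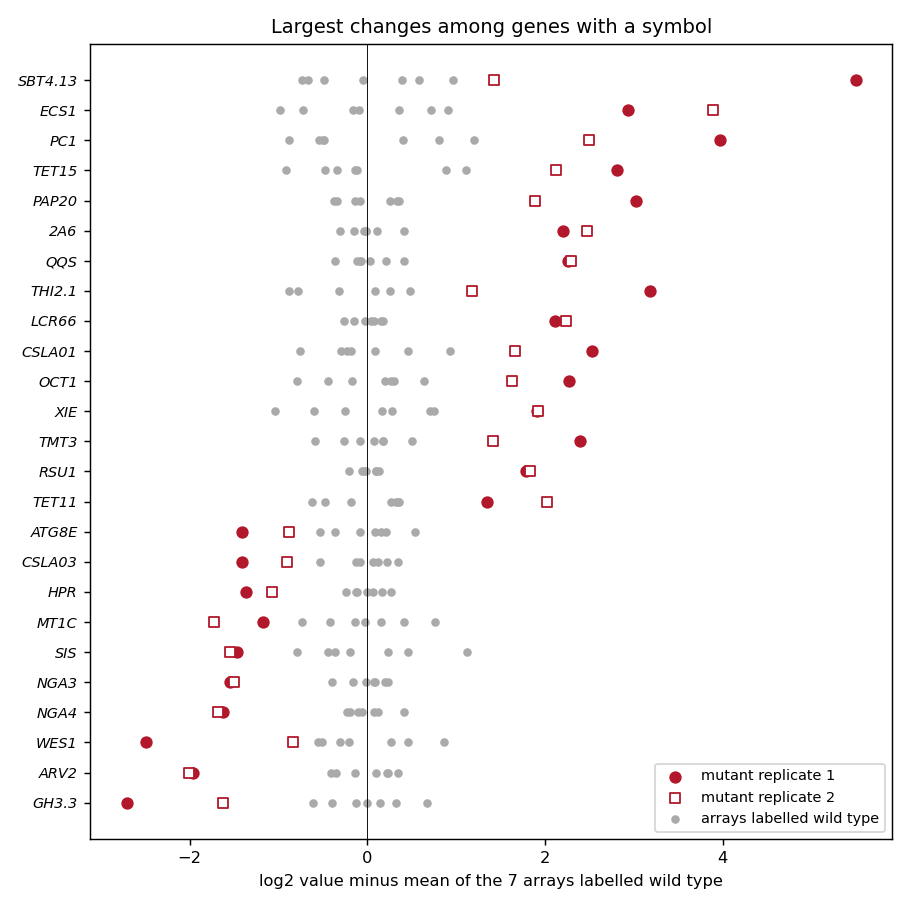
Log2 value of each array minus the mean of the 7 arrays labelled wild type (x axis) for genes with a symbol that differed at least 2-fold, 15 higher above and 10 lower below. Filled red circles are mutant replicate 1, open red squares mutant replicate 2 and grey points the arrays labelled wild type. The mutant replicates coincide for QQS, XIE, RSU1, NGA3, NGA4 and ARV2 and lie far apart for SBT4.13, at 10.55 and 6.47 on the log2 scale.

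The genes with a symbol that fell took in auxin-conjugating enzymes, a photorespiratory enzyme and genes of metal and salt response. GH3.3 and WES1 encode enzymes that join auxin to amino acids and are induced by auxin. GH3.3 had 6.89 and 7.96 on the mutant arrays, against 8.99 to 10.27 with a median of 9.59 on the arrays labelled wild type, a 4.5-fold fall (log2 difference -2.17, SE 0.32, adjusted p = 0.00606). WES1 had 7.87 and 9.52, against 9.80 to 11.22 with a median of 10.15 (log2 fold change -1.66, SE 0.42, adjusted p = 0.0491). Both mutant arrays were below all others for both genes, and replicate 1 was the lower one. The amiR-NGA arrays had 8.89 and 9.23 for GH3.3 and 9.26 and 9.54 for WES1. GH3.3 lost its call without mutant replicate 1 (adjusted p = 0.176), with the replicate block (0.0766) and against the long-days wild-type arrays alone (0.0525). WES1 lost it without mutant replicate 1 (0.655), without any one of wild-type replicates 1, 3, 4, 5, 6 and 7 (0.051 to 0.0879) and without the 3 arrays of high NGA1 (0.072). It also did not pass with no filter (0.0606), median centring (0.0558), the fit of 9 arrays (0.0661) and array weights (0.0522), and its adjusted p was 0.125 to 0.296 with the replicate block, in the 3 settings that use the long-days note and when arrays with a high actin difference were dropped.

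The other 5 auxin response genes measured did not pass: their log2 fold changes ran up to 0.58 for GH3.17 (adjusted p = 0.302), another member of the same enzyme family. In all 2 of 7 kept members of that list were lower and 0 higher, where 2.23% and 1.94% of all kept probe sets were. The list had a median log2 fold change of 0.02 beside -0.04 over all kept probe sets. Without the 3 arrays of high NGA1 the list median was -0.038, with 1 lower. None of the 3 measured genes of auxin synthesis, all of the YUCCA family of flavin monooxygenases, was called. Their log2 fold changes lay between -0.33 and -0.03, with adjusted p of 0.371 to 0.959. The 2 measured cytokinin response genes, both type-A response regulators, did not pass either, and the larger log2 fold change was 0.66 for RR16 (adjusted p = 0.349).

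Markers of the style, stigma and transmitting tract, the tissues in which the NGATHA genes are best known, were called in 0 of 4 kept genes. The log2 fold changes ran from -0.30 to 0.70, the highest being that of CES, a basic helix-loop-helix factor expressed in the transmitting tract, with an adjusted p of 0.223. The 2 mutant arrays differed here, with a median deviation from the wild-type mean of 0.29 on replicate 1 and -0.44 on replicate 2. Replicate 1 was above all 7 arrays labelled wild type for 2 of the 4 genes, where 17.5% of all kept probe sets were. Replicate 2 was below all 7 for 3 of the 4, where 17% were. The list had 15 entries, so most of it was not measured by a probe set named here. In bulk tissue, fewer cells of a type and less RNA per cell cannot be told apart. Of 3 kept genes of carpel identity and organ growth none was called. NUB, a zinc-finger gene of organ shape, had 3.89 and 3.96 on the mutant arrays, against 4.21 to 4.84 on the arrays labelled wild type (log2 fold change -0.63, adjusted p = 0.0652), and SEU, a transcriptional co-regulator of floral genes, had a log2 difference of -0.52 (adjusted p = 0.134).

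The 4 kept genes of organ polarity and ovule development, of 19 listed, were all on the higher side. Their median log2 fold change was 0.68 over 4 kept genes, and 1 was called higher, as were 1.94% of all kept probe sets. INO, a YABBY factor needed for the outer integument of the ovule, had 5.66 and 5.33 on the mutant arrays, against 4.48 to 4.98 with a median of 4.69 on the arrays labelled wild type (log2 fold change 0.77, SE 0.18, adjusted p = 0.0359). PHV, a class III homeodomain leucine zipper factor of the upper organ side, had 8.75 and 8.67, against 7.30 to 8.37 (log2 fold change 0.69, adjusted p = 0.103). YAB5 had 5.41 and 5.28, against 4.39 to 5.25 (log2 fold change 0.67, adjusted p = 0.0944), and YAB3 had 8.85 and 8.63, against 8.11 to 8.69 (log2 fold change 0.40, adjusted p = 0.167). YAB3 and YAB5 are YABBY factors of the lower organ side. The groups did not overlap for INO, PHV and YAB5 and overlapped for YAB3. The direction was the same under median centring and quantile normalization, while the call for INO ended without mutant replicate 1 (adjusted p = 0.499), without wild-type replicates 4, 6 or 7 (0.0538 to 0.0611) and without the 3 arrays of high NGA1 (0.0936).

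The photosynthesis genes that were kept, 11 of the 48 entries of the light-reaction list, had small log2 fold changes below 0. All 11 kept genes of the light reactions had negative log2 fold changes, with a median of -0.34, and 1 passed the threshold. Of all kept probe sets 7825 of 17910 had log2 fold changes above 0, and 2.23% were called lower. LHCB4.2, a minor antenna protein of photosystem II, had 10.16 and 10.28 on the mutant arrays, against 10.65 to 11.61 with a median of 11.05 on the arrays labelled wild type (log2 fold change -0.84, SE 0.20, adjusted p = 0.0371). LHCB4.3, its close relative, had a log2 difference of -0.63 (adjusted p = 0.0899), and NdhL, NdhN and NdhS, subunits of the chloroplast NAD(P)H dehydrogenase-like complex, had -0.61, -0.54 and -0.51 with adjusted p of 0.143 to 0.197. Mutant replicate 1 was below all 7 arrays labelled wild type for 5 of the 11 genes and replicate 2 for 9, where 24.9% and 17% of all kept probe sets were. The 11 genes stayed negative without replicate 1, under median centring, under quantile normalization and without the 3 arrays of high NGA1, although LHCB4.2 lost its call under median centring (adjusted p = 0.0697) and in the fit of 9 arrays (0.0522).

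The 7 kept genes of the Calvin cycle and photorespiration, of 30 listed, also had log2 fold changes below 0, with a median of -0.24 and 2 calls. Of all kept probe sets 2.23% were called lower, and 7825 of 17910 had log2 fold changes above 0. Without the 3 arrays of high NGA1, 5 of 7 were below 0, with a median of -0.23 and 1 call. HPR, the peroxisomal hydroxypyruvate reductase of photorespiration, was 2.33-fold lower. It had 10.43 and 10.72 on the mutant arrays, against 11.55 to 12.06 with a median of 11.79 on the arrays labelled wild type (log2 fold change -1.22, SE 0.16, adjusted p = 0.00235). PRK, the phosphoribulokinase that regenerates the acceptor of carbon dioxide, had 11.07 and 10.97, against 11.36 to 11.89 (log2 fold change -0.67, SE 0.15, adjusted p = 0.0308). The groups did not overlap for either. The amiR-NGA arrays had 10.40 and 10.66 for HPR, likewise below every array labelled wild type. HPR failed only without mutant replicate 1 (adjusted p = 0.0807). PRK failed under median centring (0.0671), without mutant replicate 1 (0.296), without replicate 2 (0.111), without wild-type replicate 4 (0.0508) and without the 3 arrays of high NGA1 (0.0565). LHCB4.2 failed in 14 of the 25. Beside median centring and the fit of 9 arrays these took in the replicate block (0.0622) and the long-days settings (0.0544 to 0.126). It also failed without wild-type replicates 3, 4, 5 or 6 (0.0512 to 0.0696) and without the 3 arrays of high NGA1 (0.0563). Leaving out either mutant replicate or the arrays of high actin difference ended its call as well.

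Starch and sugar genes gave 2 rises and 0 falls among 9 kept members, where 1.94% of all kept probe sets were higher. Their median was 0.70, and without mutant replicate 1 it was 0.13 with 1 rise. One was QQS and the other APL4, a large subunit of the starch-making enzyme ADP-glucose pyrophosphorylase. APL4 had 7.04 and 6.47 on the mutant arrays, against 4.83 to 6.01 on the arrays labelled wild type (log2 fold change 1.28, SE 0.31, adjusted p = 0.0421). APL3, another large subunit, had 5.84 and 5.62, against 4.42 to 5.53 (log2 fold change 0.70, adjusted p = 0.111). Both subunits were above all arrays labelled wild type on both mutant arrays. SWEET sugar exporters differed in sign: SWEET11 had 7.93 and 7.20, against 8.16 to 9.03 (log2 fold change -1.06, adjusted p = 0.0582). SWEET13 had 7.96 and 5.30, against 4.95 to 5.67 (log2 fold change 1.36, adjusted p = 0.155), and SWEET14 had 6.28 and 4.55, against 4.28 to 5.04. For SWEET13 and SWEET14 only replicate 1 was high, and SWEET14 had a log2 fold change of 0.78 over both mutant arrays but -0.077 without replicate 1. The call for APL4 ended without mutant replicate 1 (0.538), without replicate 2 (0.0544), without wild-type replicates 3, 5 or 7 (0.0518 to 0.0775) and without the 3 arrays of high NGA1 (0.0581).

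Among jasmonate genes, THI2.1, a thionin induced by jasmonate, rose with a log2 difference of 2.18 (SE 0.54, adjusted p = 0.0458). It had 10.81 on mutant replicate 1 and 8.81 on replicate 2, against 6.75 to 8.80 on the arrays labelled wild type, so that replicate 2 stood at the upper edge of the wild-type range. JAL23, a jacalin-type lectin, had 7.79 and 7.77 on the mutant arrays, against 3.65 to 7.19 (log2 fold change 2.37, SE 0.69, adjusted p = 0.0727). PDF1.2, a jasmonate-induced defensin, lay inside the wild-type range, at 4.33 and 4.59, against 4.31 to 4.66. The defence list, drawn up with earlier results of these arrays known, had 2 rises, LCR66 and ECS1, in 5 kept genes. Of all kept probe sets 1.94% were higher. The list median was 0.68, or 0.44 without mutant replicate 1. THI2.1 lost its call without mutant replicate 1 (0.626) and without any one of wild-type replicates 1 to 6 (0.0543 to 0.0835).

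Genes of hemicellulose and terpene synthesis had 3 rises among 4 kept members, where 1.94% of all kept probe sets were higher, and a median of 1.4. This list was drawn up with earlier results of these arrays known, and without mutant replicate 1 none of its members passed. CSLA01, a cellulose synthase-like enzyme of the family that makes mannan chains, had 9.56 and 8.70 on the mutant arrays, against 6.27 to 7.95 with a median of 6.85 on the arrays labelled wild type (log2 fold change 2.1, SE 0.37, adjusted p = 0.0127). IRX15-L, required for normal xylan, had 6.06 and 6.11, against 3.99 to 5.62 (log2 fold change 1.38, SE 0.34, adjusted p = 0.0452). AT5G44630, another member of the list, had 9.19 and 8.44, against 6.82 to 7.72 (log2 fold change 1.41, SE 0.24, adjusted p = 0.0106). CSLA03, of the same family as CSLA01 and not on the list, moved the other way, with 4.2 and 4.71 on the mutant arrays, against 5.08 to 5.96 (log2 fold change -1.16, SE 0.21, adjusted p = 0.0144). All 4 groups of values were free of overlap. Without mutant replicate 1 the adjusted p was 0.303 for CSLA01, 0.43 for IRX15-L, 0.278 for AT5G44630 and 0.328 for CSLA03. IRX15-L also failed without mutant replicate 2 (0.132) and without wild-type replicates 2, 3, 4, 5 or 6 (0.053 to 0.0819), and CSLA03 without the 3 arrays of high NGA1 (0.0537).

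Among the metal, salt and dehydration genes 2 of 4 fell, where 2.23% of all kept probe sets were lower, and the median was -1.48. Under median centring and under quantile normalization 1 of 4 was called, since SIS did not pass (adjusted p = 0.0655 and 0.0592). SIS, a serine-rich protein induced by salt, had 6.94 and 6.86 on the mutant arrays, against 7.61 to 9.53 on the arrays labelled wild type (log2 fold change -1.51, SE 0.38, adjusted p = 0.0487). MT1C, a metallothionein, had 6.29 and 5.73, against 6.72 to 8.22 (log2 fold change -1.45, SE 0.34, adjusted p = 0.0375). HIS1-3, a linker histone induced by drought, had 3.5 and 4.03, against 4.95 to 7.66, and a log2 fold change of -2.72 with an adjusted p of 0.0517. COR15A, a chloroplast protein of the cold response, had a log2 difference of 0.77 (adjusted p = 0.137). Both mutant arrays were below all others for SIS, MT1C and HIS1-3 and above all others for COR15A. ATG8E, an autophagy protein outside these lists, fell with a log2 difference of -1.15 (SE 0.25, adjusted p = 0.0299), with 6.16 and 6.69 on the mutant arrays, against 7.05 to 8.11. Without mutant replicate 1 these 3 calls ended, with adjusted p of 0.441 for SIS, 0.268 for MT1C and 0.481 for ATG8E. Without replicate 2 they were 0.143 for SIS and 0.174 for MT1C. Leaving out wild-type replicate 3 ended all 3 calls (0.0601 for ATG8E), SIS also failed without wild-type replicates 4, 5 or 6 (up to 0.0865 over these 4) and MT1C without 4, 5 or 7 (up to 0.0714 over these 4). Without the 3 arrays of high NGA1, MT1C had 0.0907 and ATG8E 0.0723, while 2 of the 4 list members were called lower and 1 higher.

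**Figure D4:**
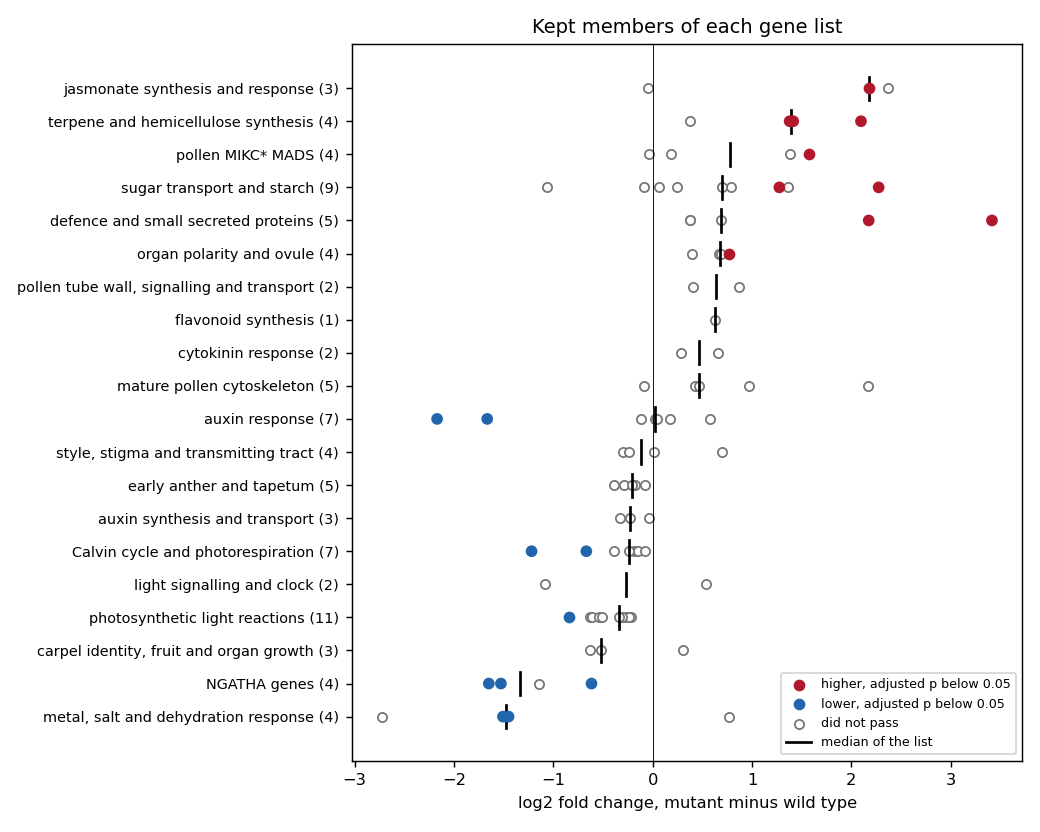
Log2 fold change, mutant minus arrays labelled wild type (x axis), of every kept member of each gene list (rows, with the number of kept members). Red and blue points are members called higher and lower at an adjusted p below 0.05, open circles did not pass, and the vertical bars are list medians. All kept members of the photosynthesis and Calvin cycle lists lie left of 0, and all 4 of the organ polarity and ovule list lie right of it.

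Pollen transcripts set the 2 mutant arrays apart. The 3 pollen lists (cytoskeleton of mature pollen, MIKC* MADS factors, pollen tube wall and signalling) had 60 entries, of which 11 were kept. Their mean level was 6.81 on mutant replicate 1 and 5.70 on replicate 2, against 5.14 to 5.85 on the arrays labelled wild type. Replicate 1 was above all 7 arrays labelled wild type for 9 of the 11 genes and replicate 2 for 2, where 17.5% and 15.3% of all kept probe sets were. Over both arrays 1 of 11 was called higher and 0 lower, where 1.94% and 2.23% of all kept probe sets were. The median log2 fold change was 0.46, and the median deviation was 0.93 on replicate 1 and 0.10 on replicate 2.

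The called gene was AGL104, a MADS-domain factor of pollen maturation. It had 6.39 and 5.36 on the mutant arrays, against 3.64 to 4.74 on the arrays labelled wild type (log2 fold change 1.57, SE 0.34, adjusted p = 0.0282). AGL66, another MIKC* MADS gene, had 6.30 and 4.81, against 3.75 to 4.56 (log2 fold change 1.38, adjusted p = 0.0539). AGL104 and AGL66 lay above all arrays labelled wild type on both mutant arrays, by less on replicate 2. AGL30 and AGL65, also MIKC* MADS genes, did not pass (adjusted p = 0.718 and 0.940). PLIM2a, an actin-bundling protein of pollen, had 8.55 and 5.41, against 4.28 to 5.97 (log2 fold change 2.17, SE 0.68, adjusted p = 0.0903), and PLIM2b had 8.07 and 6.84, against 5.87 to 7.09 (log2 fold change 0.97, adjusted p = 0.157). For these replicate 1 alone was high. The receptor kinase ANX1, which keeps the pollen tube intact, and AT4G39110 of the same list had log2 fold changes of 0.40 and 0.87 over both arrays, and -0.12 and -0.080 without replicate 1. AGL104 lost its call without mutant replicate 1 (0.497), without wild-type replicate 3 (0.0565) and without the 3 arrays of high NGA1 (0.0634).

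Genes of the early anther and tapetum, the tissue that feeds the young pollen, lay lower on replicate 1. Their median deviation was -0.52 on replicate 1 and 0.11 on replicate 2. Replicate 1 was below all 7 arrays labelled wild type for 4 of the 5 kept genes, where 24.9% of all kept probe sets were. Over both mutant arrays none was called, with log2 fold changes of -0.39 to -0.08. Anther transcripts were present in every group, with a mean level of the 5 genes of 8.81 on mutant replicate 1 and 9.37 on replicate 2, against 9.22 to 9.50 on the arrays labelled wild type. Whether the difference in pollen transcript or in the actin probe sets between the mutant arrays takes part in the calls was not tested.

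The largest differences between the 2 mutant arrays were taken among genes with a symbol whose replicate 2 value lay inside the wild-type range. No test applies to 1 array each. RALFL25, a RALF peptide, had 7.42 on replicate 1 and 4.05 on replicate 2, against 3.47 to 5.01 on the arrays labelled wild type. GILT had 8.81 and 5.46, LCR72 7.26 and 4.23, APPB1 7.23 and 4.36, and RALFL26 7.0 and 4.27. Replicate 1 was above every array labelled wild type for all of them. In the opposite direction were 3 plastid-encoded transcripts, petG, ycf4 and psaA. Their values were 3.08 and 4.63 for petG, against 3.75 to 6.15 on the arrays labelled wild type. They were 6.04 and 7.54 for ycf4, against 5.68 to 8.54, and 4.96 and 6.4 for psaA, against 5.21 to 7.60. SDT, a spermidine acyltransferase, had 5.61 and 7.11, against 5.97 to 7.35. REM22, a B3-domain gene, had 5.14 and 6.41, against 5.70 to 7.55. Replicate 1 thus lay inside the wild-type range for ycf4 and below it for petG, psaA, SDT and REM22. On average these were also lower on wild-type replicates 1 and 2, likewise of high actin difference, than on replicates 3 to 7. The means were 3.95 against 5.21 for petG, 6.57 against 8.03 for ycf4 and 5.67 against 7.01 for psaA. They were 6.24 against 7.06 for SDT and 5.99 against 7.18 for REM22. SIZ1, the SUMO ligase, had 5.14 and 6.78 on one probe set but 8.23 and 8.30 on another. On the first, those means were 5.97 and 6.87. Mutant replicate 1 minus the mean of wild-type replicates 1 and 2 ran from -0.87 for petG to -0.53 for ycf4. Of the list members below the filter on low values, SWEET9, a sugar exporter of nectaries, had 6.53 and 3.73 on the mutant arrays, against 3.61 to 4.21.

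Of 10101 kept probe sets of 1 gene, 1352 had a symbol other than the locus. Of all kept probe sets 1.26% were called at least 2-fold higher and 0.849% lower. Several of the largest changes belonged to genes known by locus alone, of which 88 rose and 52 fell by the same rule. AT5G61605 had the highest log2 fold change of these, 3.62 (SE 0.72, adjusted p = 0.021), with 11.05 and 10.20 on the mutant arrays, against 5.68 to 8.12 on the arrays labelled wild type. AT3G02480 (log2 fold change 3.02), AT5G07420 (2.72) and AT1G23240 (2.64) also rose, with adjusted p of 0.0463, 0.0464 and 0.0354. Among the falls AT1G49500 had 5.17 and 5.77 on the mutant arrays, against 6.69 to 9.44 (log2 fold change -2.96, SE 0.58, adjusted p = 0.0188). AT1G22890 (-2.94), AT1G65490 (-2.12), AT4G37560 (-2.0) and AT5G47610 (-1.96) fell as well. All 9 lost their call without mutant replicate 1, with adjusted p from 0.0626 for AT4G37560 to 0.636 for AT5G07420. AT1G23240 also lost it without replicate 2 (0.131) and without wild-type replicates 3, 4 or 6 (0.053 to 0.0596). AT3G02480 and AT5G07420 lost it without any one of wild-type replicates 2, 3, 4, 6 and 7, AT3G02480 also without 1 and AT5G07420 also without 5 (0.0543 to 0.0851 in all), and without the 3 arrays of high NGA1 (0.0772 and 0.113). Median centring ended both calls as well (0.0524 and 0.0542).

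The probe sets that passed without either mutant replicate were unevenly placed. By locus name, 13 of the 23 that represent 1 gene lay on chromosome 1, 0 on chromosome 2, 6 on chromosome 3, 3 on chromosome 4 and 1 on chromosome 5. As a share of the 1-gene probe sets tested this was 0.493% on chromosome 1, 0.291% on chromosome 3, 0.207% on chromosome 4 and 0.0425% on chromosome 5, against 0.23% over all 5 chromosomes. Over all calls the share was 5.08% on chromosome 1 and 2.89% to 3.24% on the others. On chromosome 1 the 67 rises and 67 falls were equal in number. LCR66, ECS1, 2A6, AT1G54020, AT1G06640, AT1G22010, AT1G10110 and NGA3 itself lie on chromosome 1. These shares describe the calls and were not tested.

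**Figure D5:**
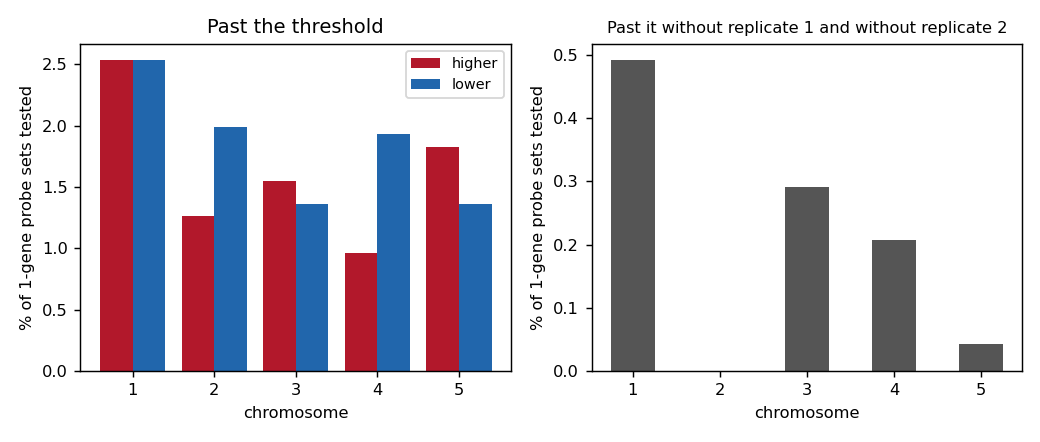
Share of the 1-gene probe sets tested on each chromosome that were called higher (red) or lower (blue) in the mutant (left panel) and that were called both without mutant replicate 1 and without mutant replicate 2 (right panel), in percent. Chromosome 1 has the highest bars in both panels, 2.54% in each direction on the left and 0.493% on the right, and chromosome 2 has none on the right.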

How the data were processed

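The authors deposited log2 expression values of 11 ATH1 arrays made with GC-RMA in R 2.7.2 and Bioconductor 2.2, per the submitters' processing notes and the series design text. Other settings and a genome build are not stated in the sources used. GC-RMA corrects background from probe sequence and normalizes between arrays. The 22810 rows include 64 control probe sets, which were removed. A filter of log2 4 or more on at least 4 arrays kept 17910 of the remaining 22746. The platform annotation gave 1 gene for 13513 probe sets, several for 503 and did not list 8730, which stay unnamed. Of the 1-gene probe sets 13436 matched the RefSeq table by Entrez number and 72 by symbol.

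Differences were tested two-sided with limma 3.58.1 (R 4.3.3, lmFit and eBayes) in 1 fit of 3 groups over all 11 arrays, with Benjamini-Hochberg adjustment. The script was tested on simulated data. No pair of arrays held identical values, and the number of arrays limits the precision.

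The members, the 20 gene lists (383 entries, 89 kept) and the tests were chosen with earlier results of these data known. In lists the brightest probe set stands for a gene. Named are the 4 NGATHA genes, the largest called changes of at least 2-fold with both mutant arrays beyond all wild-type arrays (up to 15 each way with a symbol, 8 by locus), up to 10 each way called without either mutant replicate, kept list members and up to 6 each way that differ most between the mutant replicates. List members that did not pass are named with a fold change only from 0.4 in size. Exceptions are marked. Alternatives covered the filter, scaling, eBayes settings, array weights, arrays in the fit, replicate block, day-length note, actin difference, thresholds and each array left out.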

Additional observations from a re-analysis of the deposited data

Results flagged for a closer look

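For 82 genes the 7 arrays labelled wild type were checked for a single array far from the rest, by the gap to its nearest neighbour as a share of the group's range, and 4 exceeded Dixon's critical value for 7 arrays. Chance alone is expected to give some such genes among this many. AT1G49500, a called fall, was lowest on wild-type replicate 7 (6.69, with the nearest array at 8.28, a share of 0.577), on the side of the mutant arrays at 5.17 and 5.77. GI, a clock gene that did not pass, was also lowest on wild-type replicate 7 (6.63, nearest 7.30, share 0.672), away from the mutant arrays at 8.15 and 7.59. PLIM2a, the pollen actin-bundling protein, was highest on wild-type replicate 2 (5.97, nearest 4.94, share 0.609), above mutant replicate 2 at 5.41. PHV was lowest on wild-type replicate 1 (7.30, nearest 7.93, share 0.591), and without that array it passed the threshold.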

How the results depend on the processing

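The fit called 747 probe sets and 20 kept list members. With the replicate number as a block 252 and 8 were called. The numbers are shared by 2 pairs of mutant and wild-type arrays and were not taken to pair arrays. Deviations from the group means correlated at 0.174 for the pair numbered 1 and -0.274 for the pair numbered 2. With 2 mutant arrays their deviations mirror each other, so these correlations cannot decide whether the numbers pair arrays. With only the wild-type arrays of the long-days note the counts were 204 and 9, with only those without it 132 and 8, and with the note in the model 236 and 10. Leaving out the 3 arrays of high actin difference gave 124 and 7, with that difference as a covariate 1685 and 32, and with it as a 2-level block, added after seeing the data, 1827 and 32. All 747 were among the calls of these last 2 fits. Without the arrays labelled wild type 5, 6 and 7, also added after seeing the data, 443 were called. Leaving out each array gave 39 to 963 probe sets and 5 to 20 list members. A change of at least 2-fold as well left 378, and a threshold of 0.01 left 123. Median centring gave 613, with 56.9% higher against 46.6% in the main result, the fit of 9 arrays 572 with 55.2% higher, and quantile normalization 721 with 51.9%. NGA2 kept its direction but not its call with the replicate block (-0.56), only the long-days arrays (-0.57), only the others (-0.65), leaving out the arrays of high actin difference (-0.59), without those of high NGA1 (-0.58) and without mutant replicate 1, its leave-one-out values running from -0.66 to -0.57. NGA1 turned positive with the replicate block (1.1), against the long-days arrays (0.91) and without the arrays of high NGA1 (0.95). Of genes not called, ANX1 turned to -0.081, AT4G39110 to -0.057 and SWEET14 to -0.065 when the arrays of high actin difference were left out. With 1 array left out ANX1 ran from -0.12 to 0.93, AT4G39110 from -0.080 to 1.82, SWEET14 from -0.077 to 1.65 and NGA1 from -1.53 to -0.63. The causes were not tested. With 2 mutant arrays the spread within the mutant rests on 1 degree of freedom, pooled with the other groups, and dim transcripts near the floor are limited by signal over background.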

Other observations

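Of the 36 probe sets that passed without either mutant replicate, 12 are not in the annotation. Their 2 largest rises and 2 largest falls were picked after their values were seen. The rises had log2 fold changes of 3.85 and 2.79, and the smaller of them stood at 9.88 and 9.97 on the mutant arrays. The falls had log2 fold changes of -3.39 and -3.03.

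ATB2, a gene on chromosome 1 that passed without either mutant replicate but lies outside the largest 10, was named after its values were seen. It had 9.20 and 9.16 on the mutant arrays, against 7.34 to 7.81 on the arrays labelled wild type (log2 fold change 1.54). HYH, a bZIP factor of light signalling, had 3.84 and 4.12, against 4.40 to 6.0 (log2 fold change -1.08, limma adjusted p = 0.093), without overlap of the groups and without a call. DFR, an enzyme of anthocyanin synthesis, had 5.93 and 5.23, against 4.60 to 5.47 (log2 fold change 0.63, limma adjusted p = 0.193).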
